A study of Homo sapiens with 26 samples.

Results

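Clones of 1 breast cancer cell line carried Aurora A kinase, encoded by AURKA, with opposite localization signals, and their RNA was compared. Where the kinase lay in these cells is not measured by RNA. NLS-AURKA clones carried AURKA with a nuclear localization signal and NES-AURKA clones carried AURKA with a nuclear export signal. Members were chosen by these names in the column headers, which gave 6 NLS-AURKA libraries (H, W and X of clone c2; B, Y and Z of clone c3) and 6 NES-AURKA libraries (F, S and T of clone c1; A, U and V of clone c2), 12 of 26 libraries in all. The cells were of the line MDA-MB-231Luc, derived from MDA-MB-231, a line of triple-negative breast cancer, and labelled with luciferase. They carried the doxycycline-inducible vector pLUTZ with mRFP and were kept with 0.1 to 1 mg/ml doxycycline, in MEM with fetal bovine serum and normal oxygen. Per the labels, both NES-AURKA clones held the cDNA named MUT2 and the guide sgAURKA2, and both NLS-AURKA clones the cDNA named MUT1 and the guide sgAURKA1, all at passages 32 to 35. WT-AURKA clones had no added signal and shared the cDNA name and guide of NES-AURKA. The Empty, NES-Empty and NLS-Empty lines had the vector without AURKA cDNA and the guide sgCon, at passages 19 to 20. The signal therefore cannot be told apart from the guide and the cDNA name, and each construct was represented by 2 clones. The study set these profiles beside metastasis in xenografts, which is not analysed here.

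Aurora A matures the centrosomes and builds the mitotic spindle, where TPX2 and BORA help to activate it. A pool of the kinase is also found in the nucleus, where roles in transcription have been described. MDA-MB-231 is a mesenchymal, hormone receptor-negative line, and sublines of it that home to bone, lung or brain have been used to define gene lists of organ-specific metastasis.

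The 12 libraries had the profile of that line. The mesenchymal filament gene VIM was at 234 to 1060 RPKM (reads per kilobase of transcript, scaled to the mapped reads of the library), CD44 at 32.2 to 69.4 RPKM and EGFR at 22.2 to 65 RPKM, and the hormone receptor genes ESR1 and PGR did not exceed 0.022 and 0.012 RPKM. Estimated depth was 12200000 to 19600000 reads or fragments. The titles give each library a letter, and each NLS-AURKA and NES-AURKA clone had 1 library in the range A to H and 2 in the range I to Z. These sets stood apart: the 4 libraries of the first had 22928 to 24418 genes above 0 and the 8 of the second 19157 to 20759. In a principal component analysis of the 12, component 1 (41.3% of variance) followed the letter sets and component 2 (30.1%) the constructs. Whether the libraries of one clone are separate cultures is not stated, so spread between them may be technical. Among the I to Z libraries the row of ribosomal RNA ranged from 1440 RPKM in library Z to 26100 RPKM in library X, both of NLS-AURKA.

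AURKA itself was higher in NLS-AURKA than in NES-AURKA, and near the level of the control lines. Its lowest, median and highest levels were 38.4, 48.4 and 105 RPKM in the NLS-AURKA libraries and 15.5, 29.4 and 37 RPKM in the NES-AURKA libraries. The groups did not overlap, by a narrow margin. Means were 59.2 RPKM in NLS-AURKA and 28.2 RPKM in NES-AURKA, beside 25.3 RPKM in WT-AURKA and 61.6, 59.6 and 49.9 RPKM in Empty, NES-Empty and NLS-Empty. On the log2(RPKM + 1) scale used for every difference here, the difference was 1.01 (SE 0.26, limma adjusted p = 0.0167). For AURKA it was 0.93 within the I to Z libraries (adjusted p = 0.039) and 1.16 within the A to H libraries (adjusted p = 0.0652). The AURKA call was lost without library B (0.85, adjusted p = 0.0546), without clone NES-AURKA c2 (0.8, adjusted p = 0.0568), without clone NLS-AURKA c2 (0.85, adjusted p = 0.118) and with no filter on low values (1.01, adjusted p = 0.0883). After subtraction of the empty-vector difference AURKA was not called (1.27, adjusted p = 0.25). The level of a gene symbol does not separate the cDNA from the chromosomal gene.

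Across the transcriptome, 4180 of 12589 tested genes (33.2%) passed the limma test at an adjusted p under 0.05. Of these, 2408 (19.1% of genes tested) were higher in NLS-AURKA and 1772 (14.1%) lower. With each library centred on its median the split was 1949 higher and 2198 lower, so the balance of directions rests on the scaling. Most differences were small: 242 higher and 220 lower genes reached a log2 difference of 1, and 18 higher and 43 lower genes reached 2. All 6 NLS-AURKA libraries lay above all 6 NES-AURKA libraries for 762 genes (6.05%) and below them for 459 (3.65%). Within the I to Z libraries 4716 genes (37.5%) were called, 2468 higher (19.6%) and 2248 lower (17.9%), including 3639 of the 4180. Within the A to H libraries 986 (7.83%) were called, 753 higher (5.98%) and 233 lower (1.85%), including 887 of the 4180. With the NLS-AURKA and NES-AURKA lines alone, without the control and WT-AURKA lines in the estimate of the spread, 991 genes were higher and 676 lower. A limma test of whether the difference itself changed between letter sets called 0 genes, with 1734 at an unadjusted p under 0.05. It called 1 gene with a pseudocount of 0.1, and 36 higher and 45 lower with no filter on low values. The test has 4 residual degrees of freedom and 1 A to H library per line, so 0 calls do not show that the sets agree. Counts of list members below are to be read against the share of all genes called. For both directions together it was 33.2% over all libraries, 7.83% in A to H and 37.5% in I to Z. By direction it was 19.1% higher and 14.1% lower over all libraries, 5.98% and 1.85% in A to H, and 19.6% and 17.9% in I to Z. With 1.85% lower in A to H, a count of 0 lower in a short list there is near that of all genes. Medians are to be read against the median over all tested genes, 0.05 over all libraries, 0.1 in A to H and 0.02 in I to Z.

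**Figure D1:**
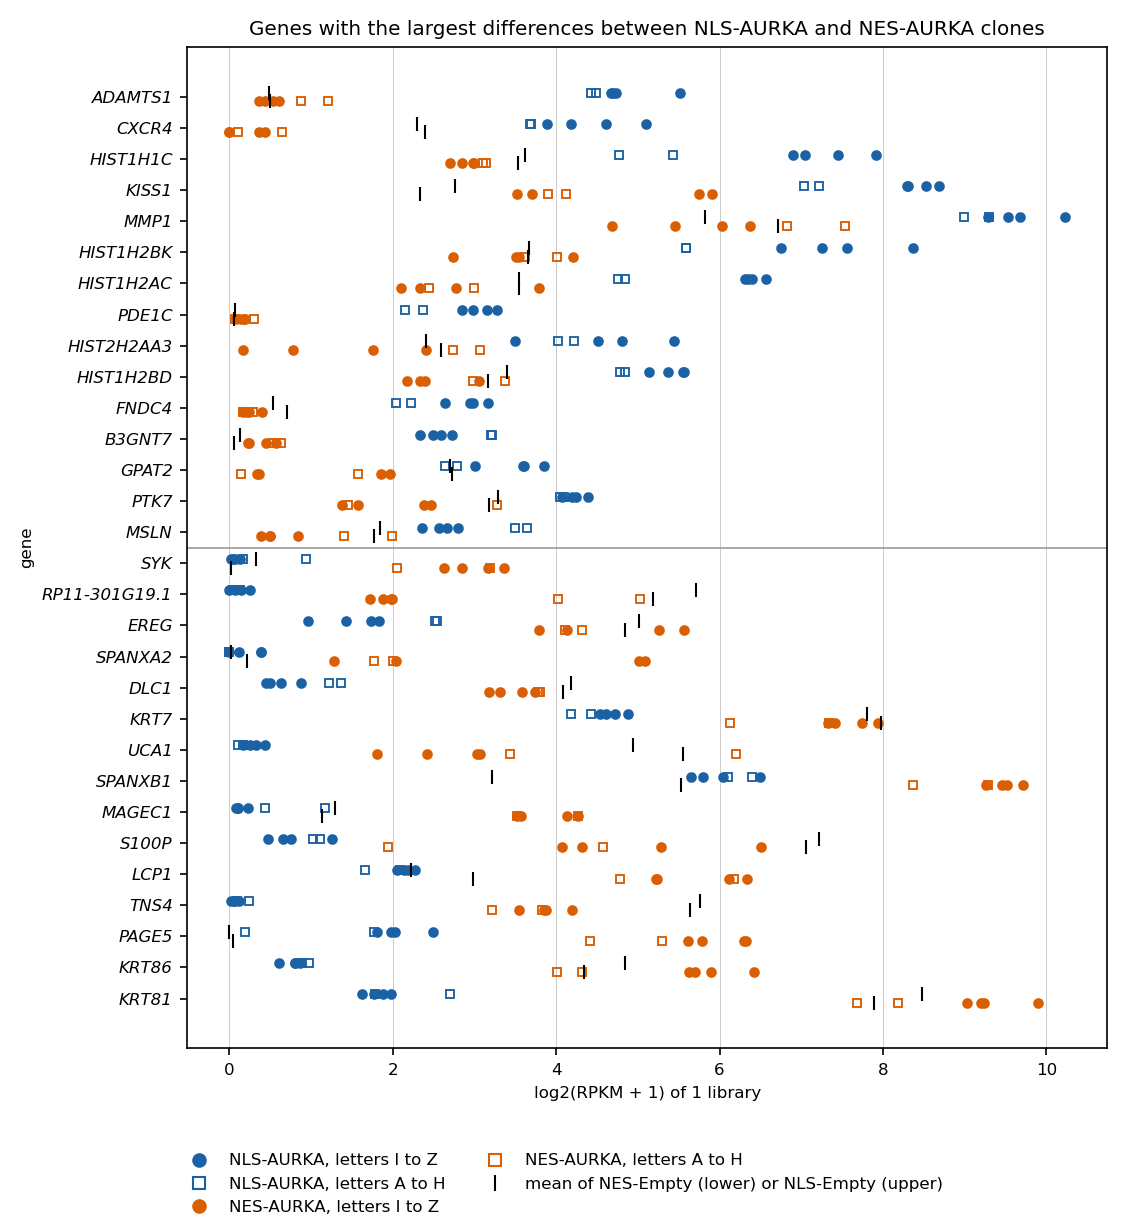
Expression of the 15 highest and 15 lowest called genes among those chosen for no overlap between the constructs and at least 5 RPKM in the higher one, as log2(RPKM + 1) on the horizontal axis with 1 symbol per library (blue, NLS-AURKA; orange, NES-AURKA; open squares, letters A to H; filled circles, letters I to Z) and black ticks for the mean of the matched empty-vector line. The gap between the constructs is part of the choice of genes. The ticks lie beside NES-AURKA for some genes, such as ADAMTS1, and beside NLS-AURKA for others, such as LCP1.

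Secreted proteases, a chemokine receptor, a metastasis suppressor gene and the histone gene HIST1H1C, described below, led the higher genes. ADAMTS1, a metalloproteinase that cleaves matrix proteoglycans, was at 20.5, 24.7 and 44.8 RPKM (lowest, median and highest) in the NLS-AURKA libraries and 0.29, 0.491 and 1.32 RPKM in the NES-AURKA libraries. Its clone means were 27.0 ± 4.78 and 0.631 ± 0.146 RPKM (SD, n = 2 clones each), a log2 difference of 4.08 (SE 0.13, limma adjusted p = 4.57e-07). The groups lay far apart in every library, and the control lines were near NES-AURKA, at 0.412 RPKM in NES-Empty and 0.398 RPKM in NLS-Empty.

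CXCR4, the receptor of the chemokine CXCL12, was at 11.8, 15.5 and 33.2 RPKM in NLS-AURKA and 0, 0.182 and 0.572 RPKM in NES-AURKA. Its log2 difference was 3.93 (SE 0.19, limma adjusted p = 5.04e-06). Here the control lines NES-Empty and NLS-Empty, at 4.27 and 3.94 RPKM, lay between the constructs, and WT-AURKA was at 0.0281 RPKM. MMP1, the interstitial collagenase, was at 507, 684 and 1200 RPKM in NLS-AURKA and 24.8, 72.9 and 185 RPKM in NES-AURKA, a log2 difference of 3.35 (SE 0.34, limma adjusted p = 2.38e-04). KISS1, which encodes the kisspeptin precursor and is known as a metastasis suppressor gene, was at 130, 314 and 411 RPKM against 10.5, 15.2 and 59.2 RPKM. Neither gene overlapped between the constructs. The KISS1 difference was 3.53 (SE 0.46, limma adjusted p = 7.13e-04), and its NES-AURKA clones lay apart, at 42.7 RPKM in c1 and 12.1 RPKM in c2.

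Among other genes near the top, PDE1C, FNDC4 and B3GNT7 were close to silent in NES-AURKA, while MSLN and PTK7 reached higher levels there. PDE1C, a calmodulin-dependent phosphodiesterase, was at 3.46 to 8.68 RPKM in NLS-AURKA and 0.0519 to 0.232 RPKM in NES-AURKA, a log2 difference of 2.63. FNDC4, a secreted fibronectin type III protein, was at 3.11 to 8.01 against 0.124 to 0.318 RPKM, a log2 difference of 2.42. B3GNT7, a glycosyltransferase, was at 4.05 to 8.26 against 0.172 to 0.548 RPKM (log2 difference 2.32). MSLN, the cell-surface protein mesothelin, differed by 1.98, with its nearest libraries at 4.13 RPKM in NLS-AURKA and 2.97 RPKM in NES-AURKA. For PTK7, a pseudokinase receptor of Wnt signalling, the NLS-AURKA clones were alike (17.3 and 16.9 RPKM in c2 and c3) and the NES-AURKA clones were not (5.81 and 1.78 RPKM in c1 and c2). The PTK7 difference of 2.08 was not called in the A to H libraries (1.71, limma adjusted p = 0.0988).

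Keratins had the largest falls. KRT81, a hard keratin of hair, was at 2.08, 2.57 and 5.51 RPKM in NLS-AURKA and 205, 552 and 950 RPKM in NES-AURKA. No library came near the other construct, and its log2 difference was -6.91 (SE 0.26, limma adjusted p = 1.41e-06), with differences of -7.52 in the I to Z and -5.7 in the A to H libraries. WT-AURKA (408 RPKM), NES-Empty (237 RPKM) and NLS-Empty (357 RPKM) were all on the side of NES-AURKA for KRT81. KRT86, another hard keratin on chromosome 12, was at 0.527, 0.786 and 0.965 RPKM against 15.1, 49.7 and 84.9 RPKM, a log2 difference of -4.51, and KRT83 had means of 0.0424 and 2.96 RPKM. These genes are close copies of each other, so reads may have been shared between them. KRT7, a simple epithelial keratin, was at 17.1, 22.8 and 28.4 RPKM in NLS-AURKA and 69.1, 165 and 244 RPKM in NES-AURKA (log2 difference -2.75, SE 0.22, limma adjusted p = 7.43e-05).

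Adhesion and signalling genes were among the lowest as well. TNS4, a tensin of focal adhesions, was at 0.0128 to 0.188 RPKM in NLS-AURKA and 8.3 to 17.3 RPKM in NES-AURKA, a log2 difference of -3.65. NES-Empty and NLS-Empty, at 48.9 and 53.4 RPKM, were above both constructs for TNS4. DLC1 was at 0.364 to 1.58 RPKM in NLS-AURKA and 8.09 to 13 RPKM in NES-AURKA (log2 difference -2.73). WT-AURKA (12.2 RPKM), NES-Empty (15.9 RPKM) and NLS-Empty (17.2 RPKM) were on the side of NES-AURKA for DLC1. EREG, the EGF receptor ligand epiregulin, was at 0.959 to 4.81 against 12.9 to 46.5 RPKM (log2 difference -2.69). The related ligand AREG fell by 1.00 (limma adjusted p = 0.00188), with overlap between the constructs and a difference of -0.23 in the A to H libraries (adjusted p = 0.686). The calcium-binding S100P was at 0.387, 0.861 and 1.4 RPKM in NLS-AURKA and 2.86, 20.9 and 89.8 RPKM in NES-AURKA. S100P fell by 3.57 over all libraries and was not called in A to H (-2.19, limma adjusted p = 0.141). The long non-coding RNAs UCA1 (0.0768 to 0.357 against 2.51 to 72.7 RPKM) and RP11-301G19.1 (0 to 0.193 against 2.31 to 31.6 RPKM) were low in NLS-AURKA too, and in both the A to H libraries of NES-AURKA were the highest.

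Another set of genes was low in NLS-AURKA and also low in the control lines, so that NES-AURKA and WT-AURKA stood above the rest. PAGE5, a cancer-testis gene, was at 0.144, 2.73 and 4.62 RPKM in NLS-AURKA and 20.3, 51.2 and 78.8 RPKM in NES-AURKA, with a mean of 78.7 RPKM in WT-AURKA and 0.0317 RPKM in NES-Empty. LCP1, the actin-bundling L-plastin, was at 2.17, 3.34 and 3.82 RPKM against 26.5, 52.5 and 79.6 RPKM, with 36.4 RPKM in WT-AURKA and 6.91 RPKM in NES-Empty. MAGEC1 was at 0.0586 to 1.25 against 10.5 to 18.3 RPKM. SYK, a cytoplasmic tyrosine kinase best known from blood cells, was at 0.0119 to 0.924 against 3.14 to 9.33 RPKM, a log2 difference of -2.65 that was not called in the A to H libraries (-2.06, limma adjusted p = 0.06).

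The empty-vector lines showed how far the vectors differed without AURKA cDNA. NLS-Empty and NES-Empty differed in 5 genes (0.0397%) by the limma test with a letter-set term and a log2 difference of at least 1, 4 higher (0.0318%) and 1 lower (0.00794%). Of the 462 genes called between the AURKA constructs with a log2 difference of at least 1, 442 differed by less than 0.5 between these lines. The 462 were chosen for their size between the AURKA constructs, so a smaller difference in other lines follows in part from the choice. Of the 462 genes 3 differed by 1 or more between the empty-vector lines. SRGN and WDR72 did so in the direction opposite to the AURKA constructs, SRGN by -1.32 against 1.55 and WDR72 by 1.20 against -1.16. SPANXB1, a cancer-testis gene, did so in the same direction: it was at 8.31 RPKM in NLS-Empty and 45 RPKM in NES-Empty, and at 68.2 RPKM in NLS-AURKA and 640 RPKM in NES-AURKA, a log2 difference of -3.18 that was not called in the A to H libraries (-2.58, limma adjusted p = 0.0841). After subtraction of the empty-vector difference 174 genes (1.38%) passed, 109 higher (0.866%) and 65 lower (0.516%), and 172 of them had also passed in the direct comparison in the same direction. This limma test has 3 residual degrees of freedom and 2201 genes at an unadjusted p under 0.05. It called 23 of the 30 genes at either end but not KISS1 (3.15, adjusted p = 0.134), PTK7, GPAT2, HIST2H2AA3, LCP1, SPANXB1 or SPANXA2.

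**Figure D2:**
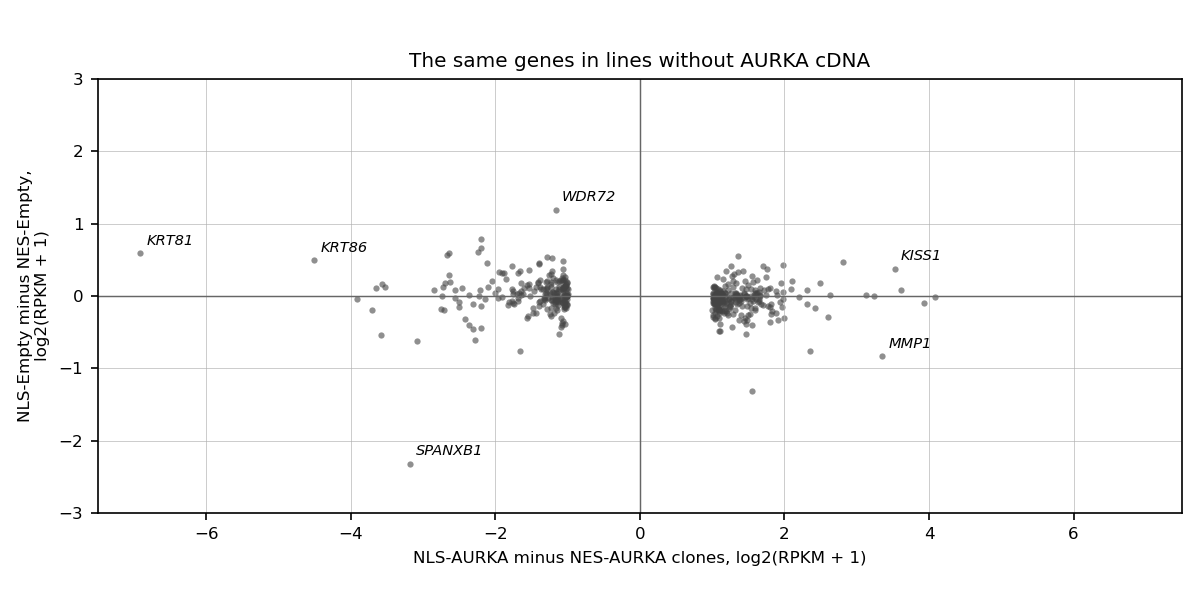
Log2(RPKM + 1) difference of NLS-Empty from NES-Empty (vertical axis) against that of NLS-AURKA from NES-AURKA clones (horizontal axis) for the 462 genes called with a log2 difference of at least 1, 1 point per gene. On the vertical axis 442 points lie within 0.5 of 0, and SPANXB1 is among the 3 that reach 1.

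Clones of one construct were compared in the same way. NLS-AURKA c3 and c2 differed in 0 genes by the limma test, also with a pseudocount of 0.1, and NES-AURKA c2 and c1 in 181 (1.44%), 42 higher (0.334%) and 139 lower (1.10%) in c2. SPANXA2 was at 22.4 RPKM in NES-AURKA c1 and 2.32 RPKM in c2 (log2 difference -2.34, limma adjusted p = 0.00113). The difference of SPANXA2 between the constructs (-2.72) lost its call with no filter on low values, with the 4 NLS-AURKA and NES-AURKA lines alone and without clone NLS-AURKA c3. GPAT2, a glycerol-3-phosphate acyltransferase, was at 0.222 and 2.51 RPKM (1.52, limma adjusted p = 1.9e-05), while both NLS-AURKA clones were above it, at 8.57 and 9.4 RPKM.

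Genes tied to organ-specific metastasis of MDA-MB-231 moved in both directions. Of 8 tested genes of the bone list, 7 were higher in NLS-AURKA and 0 lower, with a median log2 difference of 1.79. Besides ADAMTS1, CXCR4 and MMP1 these were IL11, a cytokine that promotes osteoclast formation, the growth factor FGF5, the proteoglycan SRGN and the activin antagonist FST. FGF5 was at 11, 15.1 and 23.1 RPKM in NLS-AURKA and 1.86, 4.21 and 10.8 RPKM in NES-AURKA (log2 difference 1.59, limma adjusted p = 1.32e-05). IL11 was at 15.2, 20 and 31.5 RPKM against 0.764, 5.28 and 9.23 RPKM (1.98, limma adjusted p = 0.00186). Neither overlapped, FGF5 by a narrow margin. SRGN overlapped between the constructs (means of 175 and 68.1 RPKM, limma adjusted p = 0.0462), and the remaining member, CTGF, had a difference of 0.52 (adjusted p = 0.0565). In the A to H libraries 3 members were called higher.

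Of 16 tested genes of the lung list, 2 were higher (MMP1 and NEDD9) and 9 lower, with a median of -0.58. Besides KRT81 and EREG, the lower members included ID1, an inhibitor of helix-loop-helix factors, and LTBP1, which holds latent TGF-beta in the matrix. ID1 was at 6.21, 32.5 and 46.2 RPKM in NLS-AURKA and 71.2, 93.8 and 97.2 RPKM in NES-AURKA, without overlap (log2 difference -1.96, SE 0.14, limma adjusted p = 4.43e-05). The A to H libraries of NLS-AURKA were its lowest, so that the ID1 difference was -3.35 there and -1.26 in I to Z. IL13RA2, a decoy receptor of interleukin 13, was listed at 0 in all 6 NLS-AURKA libraries and at 0.344 to 2.48 RPKM in NES-AURKA. The higher count was 4 without library F and 5 without clone NES-AURKA c1, and in the A to H libraries the counts were 1 higher and 3 lower. Of 11 genes of the brain list, 1 was higher (COL13A1) and 4 lower (LTBP1, ANGPTL4, ST6GALNAC5 and LAMA4), with a median of -0.34. The lower count was 2 without library S, library T or either NLS-AURKA clone, and 0 in the A to H libraries. The lists share members: MMP1 is in the bone and lung lists, LTBP1 and ANGPTL4 in the lung and brain lists. Counts of these lists take no account of the direction that each gene had in the metastatic sublines.

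**Figure D3:**
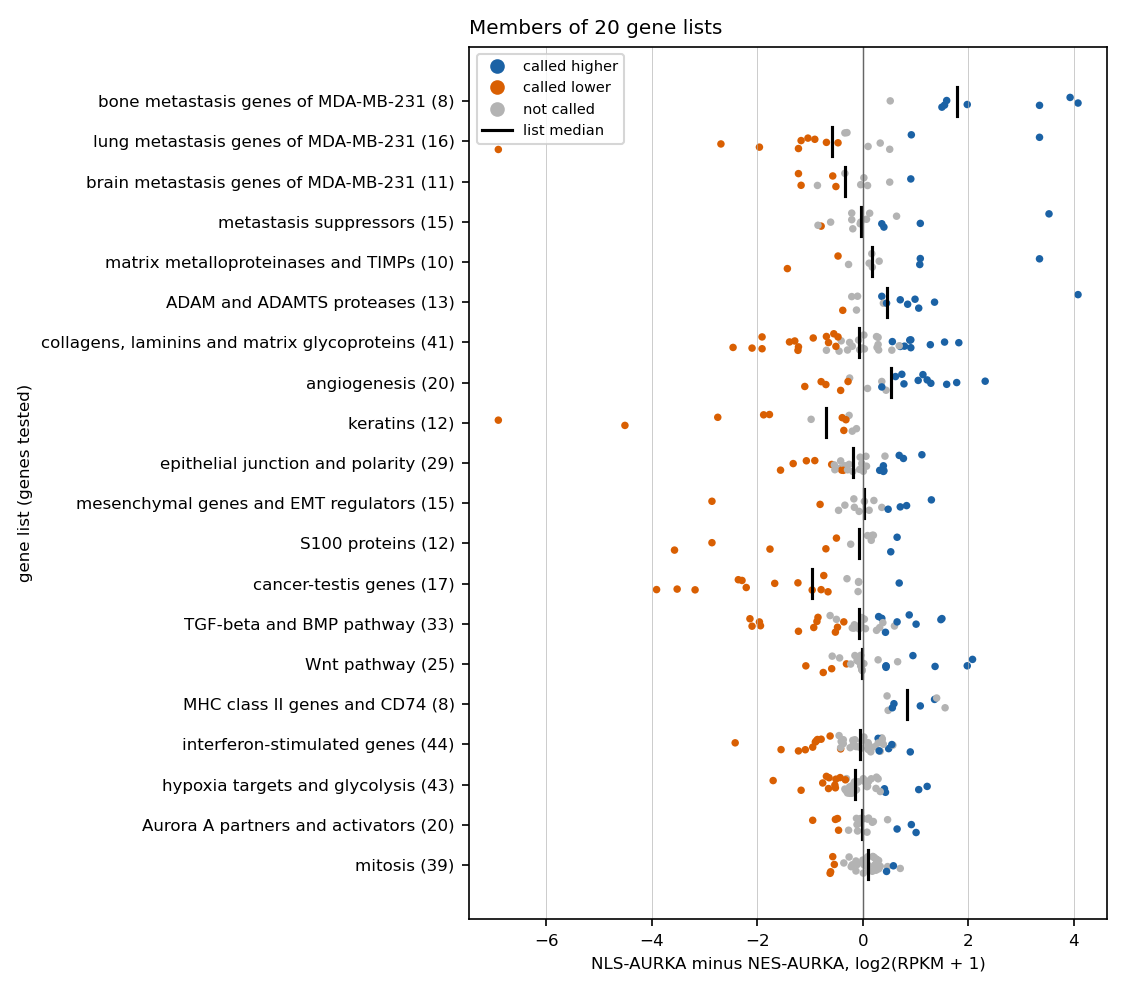
Log2(RPKM + 1) difference of NLS-AURKA from NES-AURKA for each tested member of the gene lists, 1 point per gene (blue, called higher; orange, called lower; grey, not called), with a black bar at the list median and the number tested in brackets. The bone metastasis list lies to the right with a median of 1.79, and the keratin and cancer-testis lists lie to the left with medians of -0.69 and -0.96.

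Proteases and their inhibitors went both ways. Of 13 tested ADAM and ADAMTS genes 8 were higher and 1 lower (median 0.45), with 3 higher in the A to H libraries. ADAM8, a membrane sheddase, was at 24.9 against 8.62 RPKM with overlap (log2 difference 1.36, limma adjusted p = 0.00177). Of 10 matrix metalloproteinases and their inhibitors, 3 were higher and 2 lower. MMP14, a membrane-bound metalloproteinase, was at 91.1, 109 and 149 RPKM against 40.7, 53.2 and 74.8 RPKM. The inhibitors split, with TIMP3 at 190 against 96.6 RPKM (log2 difference 1.09) and TIMP1 at 44.1 against 125 RPKM (-1.43), neither with overlap. Of 24 plasminogen activators, serpins and cathepsins 5 were higher and 8 lower (10 higher without clone NES-AURKA c1; 1 and 1 in A to H). PLAT, tissue plasminogen activator, was at 34.7 to 68.9 against 10.2 to 29.3 RPKM (log2 difference 1.48). SERPINB2, an inhibitor of plasminogen activators, fell by 2.74, and its NES-AURKA libraries ran from 1.24 RPKM in library F to 92.7 RPKM in library A.

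Vascular genes were mostly on the NLS-AURKA side. Of 20 angiogenesis genes, 11 were higher and 5 lower (median 0.53). KDR, the main VEGF receptor, was at 2.33, 3.22 and 4.08 RPKM in NLS-AURKA and 0.163, 0.25 and 0.363 RPKM in NES-AURKA, without overlap (log2 difference 1.78, limma adjusted p = 1.71e-05). CCBE1, a lymphangiogenic matrix protein, was at 3.09 to 4.82 RPKM in NLS-AURKA and listed at 0 in all 6 NES-AURKA libraries (limma adjusted p = 2.19e-06). CCBE1 was at 9.63 RPKM in NES-Empty, 8.79 RPKM in NLS-Empty and 0.00442 RPKM in WT-AURKA. ADM, a vasodilator peptide, was at 13.2 to 24.9 against 5.22 to 12 RPKM, and NRP1, a VEGF co-receptor, was lower, at 22.1 against 38.4 RPKM. The higher count was 7 without clone NLS-AURKA c2 and 4 in A to H, and the lower count 3 without library X, 2 without either NLS-AURKA clone and 0 in A to H. Of 4 tested endothelial markers 3 (KDR, TIE1 and ROBO4, all in the angiogenesis list too) were higher and 0 lower (median 0.76), with 1 higher without clone NLS-AURKA c2. All 11 summed to 44.6 to 65.3 RPKM in NLS-AURKA and 34.2 to 64.9 RPKM in NES-AURKA, with 6 of 11 under 1 RPKM in all 12 libraries, and their part in these values was not tested.

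Matrix genes split. Of 41 tested collagens, laminins and matrix glycoproteins, 9 were higher and 14 lower (median -0.08). LOX, the lysyl oxidase that cross-links collagen, was at 28.3 to 55 RPKM against 5.45 to 21.2 RPKM, without overlap (log2 difference 1.82, limma adjusted p = 6.74e-05), and COL8A1 was at 39 against 15.4 RPKM. Collagen VI chains were lower, COL6A1 at 4.06 against 26.1 RPKM (log2 difference -2.46) and COL6A2 at 1.76 against 10.2 RPKM (-1.91). The laminin chain LAMB1 was at 2.63, 3.18 and 4.03 RPKM against 11.1, 15.2 and 19.4 RPKM (-1.91), without overlap. The counts were 8 lower without clone NLS-AURKA c3, 5 higher and 9 lower without clone NLS-AURKA c2, and 2 higher and 4 lower in the A to H libraries.

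Keratins fell as a list, while other epithelial genes were called in both directions with medians below 0. Of 12 tested keratins 0 were higher and 8 lower (median -0.69), with 5 lower in the A to H libraries or without either NLS-AURKA clone. KRT80 was at 11.7 to 14.7 against 26.7 to 67.8 RPKM (log2 difference -1.77). KRT8 fell by 0.39, while its partners KRT18 and KRT19 had differences of -0.12 and -0.20 that did not pass. Of 29 junction and polarity genes 7 were higher and 7 lower (median -0.19). The desmosomal plaque gene DSP was at 24.2 against 10.6 RPKM (log2 difference 1.12) and the tight junction gene CLDN4 at 10.9 against 30.5 RPKM (-1.32). The higher count was 4 without library H or clone NLS-AURKA c2 and 3 without clone NLS-AURKA c3. The lower count was 4 without library U or clone NES-AURKA c1, 13 without NES-AURKA c2, and 3 and 2 without NLS-AURKA c3 and c2. In A to H both counts were 1. Of 14 tested luminal breast markers 1 (EPCAM) was higher and 4 (AGR2, TFF3, TFF1 and KRT8) lower (35.7%, median -0.33). Their lower count was 1 without clone NLS-AURKA c2 and 0 in A to H.

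Of 15 mesenchymal genes and regulators of the epithelial-mesenchymal transition, 4 were higher and 2 lower. VIM was at 864 against 515 RPKM with overlap (log2 difference 0.83, limma adjusted p = 0.0327), and ENG, a TGF-beta co-receptor, at 1.3 to 2.7 against 0.0169 to 0.553 RPKM. S100A4, a calcium-binding protein linked to cell motility, was at 8.97, 13.8 and 16.7 RPKM in NLS-AURKA and 15.6, 141 and 207 RPKM in NES-AURKA. Library A was the one NES-AURKA library in the range of NLS-AURKA, and S100A4 fell by 2.86 over all libraries (limma adjusted p = 0.00116) but was not called in A to H (-1.64, adjusted p = 0.249). The counts were 2 higher without either NLS-AURKA clone or in A to H, and 4 lower without clone NES-AURKA c2.

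Of 33 genes of the TGF-beta and BMP pathway, 8 were higher and 11 lower. ID3, a target of BMP signalling like ID1, was at 0.533, 6.23 and 13.5 RPKM in NLS-AURKA and 15.7, 23.2 and 30 RPKM in NES-AURKA, without overlap (log2 difference -2.14, limma adjusted p = 1.94e-04). INHBB, an activin subunit, was at 1.48 against 10.7 RPKM (-1.94), and FST, which binds activin, at 24.5 against 7.81 RPKM (1.5). The counts were 5 higher and 7 lower without either NLS-AURKA clone, and 1 and 3 in the A to H libraries. Of 25 Wnt pathway genes 7 were higher and 4 lower. FZD8, a Wnt receptor, was at 4.01, 5.65 and 6.02 RPKM against 0.346, 0.518 and 0.815 RPKM (log2 difference 1.98, limma adjusted p = 8.3e-06), and DKK1, a secreted Wnt inhibitor, at 188 against 76.2 RPKM (1.37). The Wnt counts were 4 higher without clone NLS-AURKA c2, 2 lower without NLS-AURKA c3, 7 lower without NES-AURKA c2, and 3 and 1 in A to H.

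Cancer-testis genes, which are largely silent outside the germ line, were lower in NLS-AURKA. Of 17 tested, 12 were lower and 1 (MAGEA11) higher, with a median of -0.96. The lower count was 7 without clone NLS-AURKA c3, 6 without clone NLS-AURKA c2 and 4 in the A to H libraries. Besides PAGE5, MAGEC1 and SPANXB1, SPANXC was at 0, 0.535 and 1.93 RPKM against 3.5, 7.55 and 11.7 RPKM (log2 difference -2.36). Members of the SPANX, PAGE and MAGE families have near-identical copies, so a row may hold reads of another gene. All 17 are on chromosome X.

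Neighbouring genes differed together along several chromosomes. This description was chosen after the values were seen and rests on 11457 genes (91%) with a chromosome in RefSeq (GRCh38.p14). On chromosome 18, 116 of 160 genes were higher in NLS-AURKA and 4 lower (median 0.50). On chromosome 20, 14 of 321 were higher and 162 lower (median -0.37), and on chromosome X 44 of 407 were higher and 229 lower (median -0.40). Chromosome 16 had 48 higher and 47 lower of 491, with a median of 0. Set against the control lines, chromosome 20 was at -0.37 in both NLS-AURKA clones and at 0 and -0.08 in NES-AURKA c1 and c2. Chromosome X was at 0.46 and 0.40 in the NES-AURKA clones, 0.62 in both WT-AURKA clones and 0.02 and -0.01 in the NLS-AURKA clones. The medians had the same sign in both letter sets, at 0.55 in A to H and 0.48 in I to Z for chromosome 18, -0.30 and -0.38 for chromosome 20 and -0.20 and -0.50 for chromosome X.

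A running median over 41 genes in chromosome order stayed at or beyond 0.4 for at least 20 genes in 23 stretches, 12 higher and 11 lower in NLS-AURKA. The one with the most genes ran from RIPK1 to FOXP4 on chromosome 6 (275 genes, median 0.56, 188 higher and 3 lower). Relative to the control lines the NES-AURKA clones were at -0.32 and -0.35 there, the WT-AURKA clones at -0.29 and -0.31 and the NLS-AURKA clones at 0.21 and 0.22. The stretch from ZNF791 to ELL on chromosome 19 (101 genes, median 0.62) was at 0.63 and 0.59 in the NLS-AURKA clones and -0.04 in both NES-AURKA clones. The stretch from TCEAL8 to CLIC2 on chromosome X (160 genes, median -0.62) was at 0.5 and 0.55 in NES-AURKA, 0.78 and 0.84 in WT-AURKA and -0.08 and -0.05 in NLS-AURKA. Within a stretch the clones of one construct differed by at most 0.2 (NLS-AURKA) and 0.3 (NES-AURKA). The stretches held 1528 genes, of which 1106 (72.4%) were called, against 2780 of 9929 (28%) elsewhere. They also held 142 of the 462 called genes with a log2 difference of at least 1. Because the stretches were defined by these same differences, the larger share of called genes inside them was fixed in advance. DNA copy number was not measured, and its part in the differences was not tested.

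**Figure D4:**
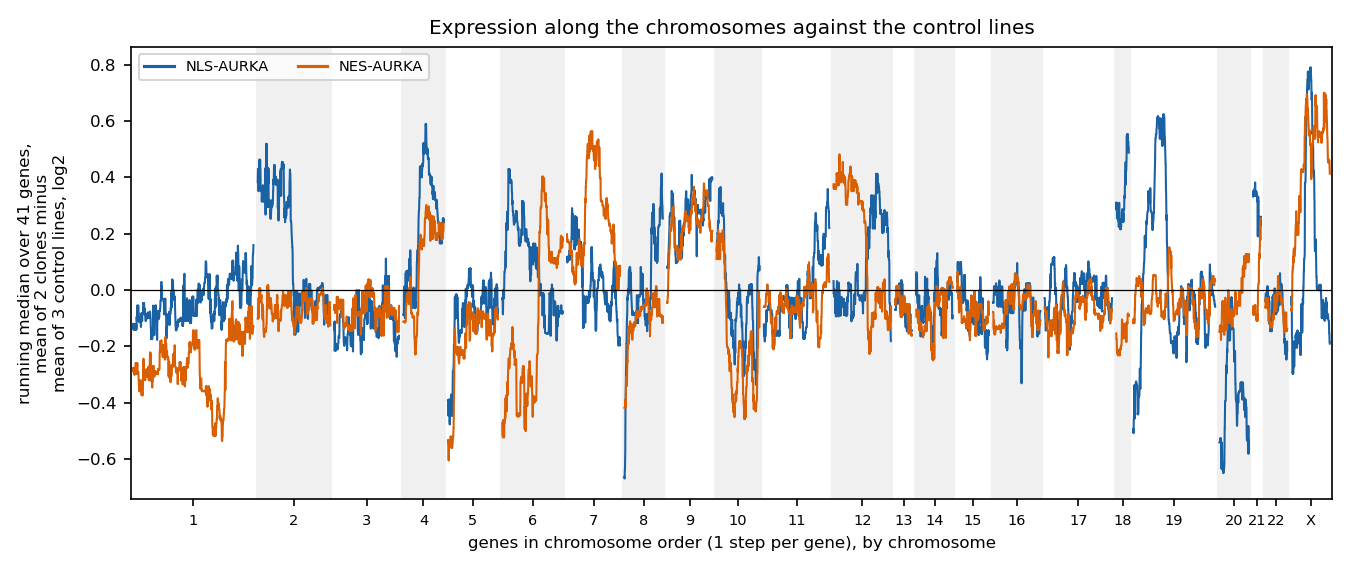
Running median over 41 genes, in chromosome order, of the mean of 2 clones minus the mean of the control lines on the log2(RPKM + 1) scale (blue, NLS-AURKA; orange, NES-AURKA), with the first and last 20 genes of each chromosome left out. NLS-AURKA lies above NES-AURKA along chromosome 18 and below it over most of chromosome 20 and the last part of chromosome X, where the stretch of 160 genes has a median difference of -0.62.

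Gene lists differed in how far they followed their neighbours. After subtraction of the local running median, the bone metastasis list had a median of 1.63 (1.79 before), keratins -0.70 (-0.69 before), angiogenesis genes 0.47 (0.53 before) and ADAM and ADAMTS genes 0.35 (0.45 before). For cancer-testis genes, 13 of 17 of them in stretches, the median went from -0.96 to -0.44. For MHC class II genes, 7 of 8 of them in stretches of chromosome 6, it went from 0.84 to 0.27. Of these 8 genes 4 were called higher, among them the antigen-presenting chain HLA-DRB1 at 4.28 against 1.25 RPKM (limma adjusted p = 0.00628), with 1 called without either NLS-AURKA clone, 8 without clone NES-AURKA c1 and 0 in A to H. HLA genes are close copies, and their rows may share reads. AURKA lies in a lower stretch of chromosome 20, where the local running median was -0.40, while its own difference was 1.01. CDC25B, a phosphatase that activates CDK1, and CTSZ, a cathepsin, lie in lower stretches of the same chromosome and fell by 0.95 and 1.38.

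Clustered histone genes were a related group among the top genes. Of 28 tested rows whose symbol begins with HIST, a set formed after the values were seen, 16 were higher in NLS-AURKA and 0 lower (median 0.62). For 9 of the 28, all 6 NLS-AURKA libraries lay above all 6 of NES-AURKA, against 6.05% of all tested genes. HIST1H1C, a linker histone, was at 26.2, 124 and 240 RPKM in NLS-AURKA and 5.49, 6.94 and 7.82 RPKM in NES-AURKA (log2 difference 3.62, SE 0.09, limma adjusted p = 1.88e-07). HIST1H2BK, an H2B gene, was at 47.1, 129 and 329 RPKM against 5.66, 11 and 17.5 RPKM (3.24, SE 0.24, limma adjusted p = 5.88e-05). The groups were well apart for both, and WT-AURKA, NES-Empty and NLS-Empty were near NES-AURKA, for HIST1H1C at 13, 10.6 and 11.3 RPKM. HIST1H2AC, an H2A gene, was at 26.1, 79.5 and 93.8 RPKM against 3.29, 5.14 and 12.9 RPKM, and HIST1H2BD, an H2B gene, at 26.6, 37.3 and 46.5 RPKM against 3.52, 5.58 and 9.37 RPKM. In these 4 genes the A to H libraries of NLS-AURKA were its lowest. HIST2H2AA3 was higher by 2.60, but it and HIST2H2AA4 are near-identical copies whose reads cannot be assigned with certainty.

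The 4 genes above lie in one cluster and moved together, so their promoters are shown. The sequences are from RefSeq (GRCh38.p14, another build than the hg19 of the table) and give the 250 bases before the annotated start, 5′ to 3′ on the strand of the gene. Capitals mark the CCAAT box (CCAAT or its reverse complement ATTGG) and the octamer (ATTTGCAT or its reverse complement ATGCAAAT), motifs known from histone promoters that were chosen after the values were seen and searched on both strands. The regions are chr6:26056471-26056720 on the minus strand for HIST1H1C (H1-2 in RefSeq), chr6:27146859-27147108 on the minus strand for HIST1H2BK (H2BC12), chr6:26123922-26124171 on the plus strand for HIST1H2AC (H2AC6) and chr6:26157871-26158120 on the plus strand for HIST1H2BD (H2BC5).
HIST1H1C: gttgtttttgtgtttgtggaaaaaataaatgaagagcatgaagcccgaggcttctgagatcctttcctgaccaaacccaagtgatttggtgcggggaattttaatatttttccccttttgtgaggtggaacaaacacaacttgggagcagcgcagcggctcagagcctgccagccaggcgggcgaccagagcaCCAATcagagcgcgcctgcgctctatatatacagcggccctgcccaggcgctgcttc
HIST1H2BK: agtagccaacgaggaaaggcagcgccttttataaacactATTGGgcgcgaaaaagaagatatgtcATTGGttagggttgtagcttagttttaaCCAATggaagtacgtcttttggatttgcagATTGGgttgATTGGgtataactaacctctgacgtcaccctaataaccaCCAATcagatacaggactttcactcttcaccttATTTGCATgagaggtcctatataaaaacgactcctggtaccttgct
HIST1H2AC: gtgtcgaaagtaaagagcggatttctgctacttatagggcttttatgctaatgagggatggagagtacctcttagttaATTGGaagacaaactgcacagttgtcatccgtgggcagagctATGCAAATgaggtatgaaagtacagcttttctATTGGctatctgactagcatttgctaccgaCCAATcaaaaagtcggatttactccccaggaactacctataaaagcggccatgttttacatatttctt
HIST1H2BD: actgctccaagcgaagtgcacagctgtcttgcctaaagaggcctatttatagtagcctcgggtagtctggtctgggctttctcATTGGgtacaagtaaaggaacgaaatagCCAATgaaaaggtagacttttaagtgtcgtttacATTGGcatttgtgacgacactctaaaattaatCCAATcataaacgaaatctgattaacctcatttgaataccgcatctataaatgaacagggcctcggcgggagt
These promoters hold 1, 6, 3 and 4 CCAAT boxes in that order. The octamer is in HIST1H2BK, 46 bases before the start, and in HIST1H2AC, 130 bases before it. Of all 27305 promoters in the table, 33.0% hold a CCAAT box and 1.66% an octamer. Promoters were matched for 12 of the 15 highest genes, of which 9 hold a CCAAT box, and for 8 of the 15 lowest, of which 4 do. The 9 include the histone genes HIST1H1C, HIST1H2BK, HIST1H2AC, HIST1H2BD and HIST2H2AA3. Because the motifs were chosen from histone promoters, the share among the highest genes follows in part from that choice. A match describes letters and is not evidence of binding.

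The size of the histone difference depended on the libraries. In the I to Z libraries 20 of 28 were higher and 0 lower, with a median of 0.90. In the A to H libraries 6 were higher and 0 lower, against 5.98% and 1.85% of all genes. Their median there was 0.06, against 0.1 over all genes. HIST1H1C differed by 4.44 in I to Z and 1.97 in A to H, and HIST1H2BK by 3.98 and 1.77. In libraries X and Z the ribosomal RNA row was at its extremes within the I to Z set. Without libraries X and Z 13 were higher and 1 lower (against 36.5% of all genes called), with HIST1H1C at 3.07. Canonical histone messages mostly end in a stem-loop and not in a poly(A) tail, and the libraries were made with an mRNA kit. The nuclear RNA MALAT1 ranged from 175 to 439 RPKM in these clones' libraries of the A to H set, and in I to Z from 18 to 33.5 RPKM in NES-AURKA and 6.1 to 22.1 RPKM in NLS-AURKA. The part of RNA selection in the histone difference was not tested. Of 9 tested replacement and linker histone genes with symbols beginning H1F, H2AF or H3F, 0 were higher and 3 lower, H2AFJ by 0.80, H1FX by 0.53 and H2AFV by 0.29 on the log2 scale. Of the 28 HIST rows 26 lie in stretches of neighbours that were higher, and after subtraction of the local running median their median went from 0.62 to 0.03. The HIST rows are themselves part of those running medians.

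**Figure D5:**
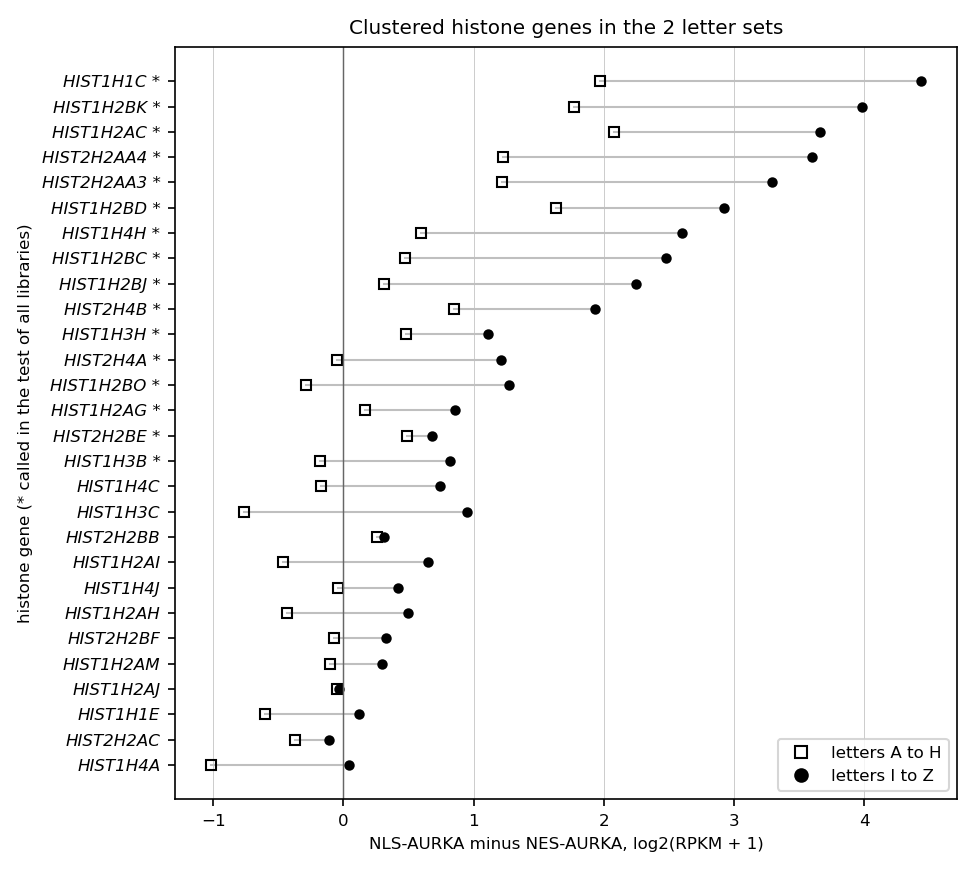
Log2(RPKM + 1) difference of NLS-AURKA from NES-AURKA for the 28 tested clustered histone genes, computed in the libraries lettered A to H (open squares) and I to Z (filled circles), with an asterisk for genes called in the test of all libraries. HIST1H1C is at 1.97 in A to H and 4.44 in I to Z, and the I to Z value is the higher one for all 28 genes.

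The mitotic machinery had few calls over all libraries: of 39 mitosis genes 2 were higher and 4 lower (15.4%, against 33.2% of all genes), with a median of 0.10. The kinetochore genes NUF2 and NDC80 were higher by 0.58 and 0.45, and TTK, a kinase of the spindle checkpoint, was lower by 0.62. AURKB, the kinase of the chromosomal passenger complex, was at 22.6 ± 1.42 RPKM in NLS-AURKA and 19.2 ± 4.61 RPKM in NES-AURKA (SD, n = 2 clones; limma adjusted p = 0.367), and PLK1, another mitotic kinase, at 15.6 and 15.9 RPKM (adjusted p = 0.54). These counts rested on the libraries used. Within the I to Z libraries 13 were higher and 3 lower (against 37.5% of all genes called there), and within A to H 0 and 0. The higher count was 5 without library A, 4 without library H, 8 without libraries A and D and 11 without clone NES-AURKA c2. The lower count was 9 without library F, 8 without libraries X and Z, 10 without clone NES-AURKA c1, 2 without library S, library B or either NLS-AURKA clone, and 1 without library T or H.

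Of 20 Aurora A partners and activators, 3 were higher and 4 lower (median -0.02). The share called, 35%, was near the 33.2% of all genes. The higher ones were AURKA, NEDD9, a scaffold that activates Aurora A, and CEP192, its recruiter at the centrosome. NEDD9 was at 1.36 to 2.73 RPKM against 0.354 to 0.703 RPKM, without overlap (log2 difference 0.92, limma adjusted p = 3.32e-04), and CEP192 at 4.99 against 2.87 RPKM. The lower ones were CDC25B, FZR1, which targets Aurora A for degradation, BORA and HDAC6. FZR1 was at 4.84 to 5.62 against 7.07 to 8.48 RPKM, without overlap, and BORA at 4.31 against 6.38 RPKM with overlap. TPX2, the spindle activator of Aurora A, was at 109 ± 3.92 and 93.7 ± 8.51 RPKM (SD, n = 2 clones), and this difference did not pass (0.18, limma adjusted p = 0.242). The higher count was 5 without clone NES-AURKA c2 and 6 in I to Z, and in A to H the counts were 0 and 1.

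Of 8 tested basal breast markers 2 were higher and 5 lower (87.5%, against 33.2% of all genes; median -0.54). EGFR was higher, and ITGB4 and MET were among the lower ones. The lower count was 3 without library S, library T or library B, 2 without clone NLS-AURKA c2 and 0 in A to H. Of 34 genes of the ATF4 and unfolded protein response 0 were higher and 6 lower (17.6%, median -0.18), among them the stress factor DDIT3, at 14.3 against 26.6 RPKM (log2 difference -0.88, limma adjusted p = 5.11e-04). Their lower count was 1 without library U or clone NLS-AURKA c2, 3 without library W or clone NES-AURKA c1, 10 without clone NLS-AURKA c3, 12 without libraries A and D and 0 in A to H.

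Of 44 interferon-stimulated genes 5 were higher and 11 lower (36.4%, median -0.06). OASL, an interferon-induced antiviral protein, was at 0.581, 1.06 and 1.53 RPKM in NLS-AURKA and 4.05, 11.7 and 13.8 RPKM in NES-AURKA, without overlap (log2 difference -2.42, limma adjusted p = 2.19e-04). The interferon counts were 2 higher without either NLS-AURKA clone, 3 without library Y, library Z or clone NES-AURKA c2 and 12 without NES-AURKA c1. The lower count was 7 and 6 without NLS-AURKA c3 and c2, 17 without NES-AURKA c2 and 1 in A to H, where 1 was higher. Of 43 hypoxia and glycolysis genes 4 were higher and 11 lower (34.9%). HK2, hexokinase, was at 34 to 49 against 14.5 to 24.8 RPKM (log2 difference 1.06), and BHLHE40, a hypoxia-induced repressor, at 7.58 against 24.8 RPKM with overlap (-1.70). Here the lower count was 0 in A to H, 7 without NLS-AURKA c2 and 17 without NES-AURKA c1, and the higher count 2 without NLS-AURKA c3 and 10 without NES-AURKA c2. Of 76 cytosolic ribosomal protein genes 15 were higher and 5 lower, but 2 higher without library X, 4 without library A and 9 without library Z. Their lower count was 10 without library F, 1 without library S and 0 without library T, B or H.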

How the data were processed

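RNA of MDA-MB-231Luc lines was sequenced in 26 libraries of 9 lines. The submitters' processing notes name HISAT2, Partek, SAMtools and hg19. The deposited table gives 1 value per gene and library; its header names no unit, and the spacing of its low values is that of RPKM, so the deposited values were used as RPKM (FPKM cannot be told apart). Depth was estimated from that spacing. Genes with at least 1 RPKM in at least 2 libraries were tested (12589 of 33562 rows). Values were taken as log2(RPKM + 1), averaged within each line, and fitted with limma 3.58.1 (R 4.3.3, trend) over 9 lines in 4 groups with 5 residual degrees of freedom. The groups were NLS-AURKA, NES-AURKA, WT-AURKA and a control group that pooled the Empty, NES-Empty and NLS-Empty lines. They shared a common estimate of the spread, which therefore includes differences between those control lines. The fit had no letter-set term, and WT-AURKA c2 had no A to H library, only Q and R. The WT-AURKA means, and the difference between the WT-AURKA clones in that spread, therefore also hold a difference between letter sets. The p-values were Benjamini-Hochberg adjusted and called under 0.05. A fold on this scale understates changes of low genes. Where single lines were compared, libraries of a line gave the spread, which may be technical, and a log2 difference of at least 1 was also required. Named genes were AURKA, the 15 highest and 15 lowest called genes without overlap (mean in the higher group at least 5 RPKM), and up to 4 called members (at least 2 RPKM) of each of 48 lists with at least 3 called; other names were added after their values were seen. Members and lists were chosen with earlier results of these data known. Scripts were tested on simulated data. Alternatives were pseudocounts, filters, scalings, the lines and libraries in the fit, and, added after seeing the data, fits without libraries A and D or X and Z.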

Additional observations from a re-analysis of the deposited data

Results flagged for a closer look

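The difference between AURKA clones and their empty-vector line was itself different between the NLS and the NES pair for 109 genes that were higher and 65 that were lower in the NLS pair, by limma over the 9 lines with each empty-vector line counted once. Of the 30 genes at either end of the direct comparison, 23 were among them. On the log2 scale the difference between the pairs was 4.18 for MMP1, 4.1 for ADAMTS1, 4.03 for CXCR4, 2.62 for PDE1C, 2.59 for FNDC4, 2.24 for B3GNT7 and 1.93 for MSLN. The histone genes HIST1H1C, HIST1H2BK, HIST1H2AC and HIST1H2BD had values of 3.54, 3.24, 3.12 and 2.31. Among keratins it was -7.5 for KRT81, -5 for KRT86 and -2.57 for KRT7. For PAGE5 it was -3.86, for TNS4 -3.76, for S100P -3.74 and for MAGEC1 -3.65. For RP11-301G19.1 it was -3.23, for SYK -2.94, for EREG -2.87, for DLC1 -2.85 and for UCA1 -2.46. These genes were chosen by the direct comparison, which shares its AURKA libraries with this test.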

How the results depend on the processing

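The counts of 2408 higher and 1772 lower genes ranged over 2117 to 2519 and 1493 to 1983 when single libraries were left out. They were 991 and 676 with the 4 NLS-AURKA and NES-AURKA lines alone, 753 and 233 in the A to H libraries, 1471 and 1039 without clone NLS-AURKA c3 and 1329 and 921 without clone NLS-AURKA c2. By contrast they were 2960 and 2513 without clone NES-AURKA c2, 2996 and 1935 without clone NES-AURKA c1, and 2468 and 2248 in the I to Z libraries. Quantile normalization gave 2146 and 2099, rescaled sums 2006 and 1940. Beyond the empty-vector lines, 64 genes were higher with a pseudocount of 0.1, 592 higher and 531 lower with no filter on low values, and 131 lower in the I to Z libraries. Between letter sets, 1 gene was higher with a pseudocount of 0.1, and 36 higher and 45 lower with no filter. With a pseudocount of 0.1, NLS-Empty against NES-Empty had 3 lower genes and NES-AURKA c2 against c1 100 higher and 419 lower. For these the cause was not tested. Of 172 named genes, 98 lost their call in A to H, 51 with the 4 lines alone, 43 and 40 without clone NLS-AURKA c2 and c3, and 41 with no filter. Directions turned in the A to H libraries for B2M (0.1), S100A3 (0.06), TRIB3 (0.55), CEBPB (0.22), EDEM1 (0.22) and XPC (0.1), and without libraries X and Z for MALAT1 (0.06). No paired analysis was possible because the labels give no replicate numbers. A fit of libraries with a letter-set term and an estimated correlation within a line (0.0429) gave 3152 higher and 2271 lower. At so low a correlation that fit treats libraries of a clone almost as separate replicates of the construct. Its larger counts therefore do not measure the spread between clones. Precision is limited by 2 clones per construct.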
